A study of Mus musculus with 3 samples.

Results

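Ccr7, S1pr1, S1pr4, S1pr5, Klf2, Il7r, Tcf7 and Lef1, 8 of the 31053 genes in the count tables, were followed in blood lymphocytes of C57BL/6J mice. They were chosen by gene symbol, as genes of the homing, exit and upkeep of naive lymphocytes. The choice was made with earlier results of these data known. All 8 were found in the gene list of every library. The data were 3 droplet single-cell RNA libraries made with 10x 3′ v3 chemistry, 1 for each group, and all labelled as 12 h. The HDCA+CLP library came from HDCA-treated mice with CLP, the CLP library from CMC-treated mice with CLP, and the Sham library from mice whose label names neither HDCA nor CMC. The labels leave these names unexpanded. HDCA is taken to be the bile acid hyodeoxycholic acid, CMC the vehicle carboxymethylcellulose, and CLP the sepsis model in which the caecum is ligated and punctured. Since CMC is named for CLP mice and not for Sham mice, its part in CLP against Sham cannot be told apart from that of the surgery. The labels call the material peripheral blood mononuclear cells, give no number of animals behind a library, and describe digestion with hyaluronidase and DNase I. Neutrophils nevertheless made up 72.3% of kept cells in HDCA+CLP and 44.1% in CLP, against 2.37% in Sham.

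Naive T and B cells circulate between blood and lymph nodes. The chemokine receptor encoded by Ccr7 helps to bring them into the nodes, and receptors for sphingosine 1-phosphate (S1P), a lipid that is abundant in blood and scarce in tissue, let them leave again. Klf2 is a transcription factor that maintains S1pr1 in quiescent T cells, Il7r encodes the interleukin-7 receptor chain on which naive T cell survival depends, and Tcf7 and Lef1 encode TCF1 and LEF1, related factors of naive and memory T cells. S1pr5 is known in the mouse as the receptor that NK cells use to leave bone marrow and lymph nodes.

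Promoter sequence was matched by symbol for 6 of the 8 genes in RefSeq tables of build GRCm38.p6. The 3 windows below, each the 250 bases upstream of the annotated start and read on the gene's strand, are shown because in NK cells Klf2 was 2.14-fold and S1pr5 4.77-fold lower in CLP than in Sham, while S1pr4, of the same receptor family as S1pr5, stayed within 1.5-fold on all UMIs. Capitals mark CACCC or its reverse complement GGGTG, the core bound by KLF factors; both strands were searched and the marked matches do not overlap.
Klf2 (chr8:72318812-72319061, plus strand): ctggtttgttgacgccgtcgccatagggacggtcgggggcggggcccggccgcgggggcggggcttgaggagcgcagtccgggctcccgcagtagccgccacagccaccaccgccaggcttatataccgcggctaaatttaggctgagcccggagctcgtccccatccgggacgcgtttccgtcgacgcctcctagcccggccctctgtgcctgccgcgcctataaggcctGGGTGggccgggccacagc
S1pr5 (chr9:21248444-21248693, minus strand): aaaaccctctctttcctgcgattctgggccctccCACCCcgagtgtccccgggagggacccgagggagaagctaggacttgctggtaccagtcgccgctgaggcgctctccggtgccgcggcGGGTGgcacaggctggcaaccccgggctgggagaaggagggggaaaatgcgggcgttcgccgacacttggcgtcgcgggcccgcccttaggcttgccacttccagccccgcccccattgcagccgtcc
S1pr4 (chr10:81500138-81500387, minus strand): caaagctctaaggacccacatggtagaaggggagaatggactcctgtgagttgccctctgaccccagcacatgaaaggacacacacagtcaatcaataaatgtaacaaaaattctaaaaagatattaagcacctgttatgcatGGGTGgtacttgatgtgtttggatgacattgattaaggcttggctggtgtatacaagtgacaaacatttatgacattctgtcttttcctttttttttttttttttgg
The CACCC core stands in 52.0% of all 32851 promoter windows of this length, so its presence here is common. S1pr5 holds 2 CACCC cores, Klf2 and S1pr4 1 each. GTAAACA of FOXO factors (3.17% of windows), CTTTGA of TCF and LEF factors (13.8%) and TCACAC of T-box factors (12.3%) were not in these letters of the 3 windows. A match is a description of the sequence, and nothing was measured here on binding.

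Cells were assigned to classes by marker UMIs (unique molecular identifiers, 1 per captured transcript). T cells had at least 2 UMIs of Cd3d, Cd3e, Cd3g and Trac together and were split into CD8-positive cells, with at least 2 UMIs of Cd8a and Cd8b1, and CD8-negative cells, with 0. B cells had at least 3 UMIs of Cd79a, Cd79b and Ms4a1, NK cells at least 2 of Ncr1, Klrb1c and Klra8, and in every class S100a8 and S100a9 made up under 5% of UMIs. This gave 380, 783 and 843 CD8-positive T cells in the HDCA+CLP, CLP and Sham libraries, 888, 2015 and 2019 CD8-negative T cells, 278, 286 and 2652 B cells, and 528, 1219 and 287 NK cells. UMIs summed over a class came to between 905868, in B cells of the HDCA+CLP library, and 12751929, in CD8-negative T cells of the Sham library. Levels are CPM, the UMIs of a gene scaled to a common total of UMIs in the summed class, with 95% intervals that cover counting error only. Because 1 library stood for each group, no test between groups was possible, and a gene is called higher or lower only where its CPM ratio was at least 1.5-fold with an interval that excluded no change.

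The marker lists mostly bore out the class names, with exceptions that touch the results. Cell barcodes were shared between libraries in 34 cases for HDCA+CLP and CLP, 17 for HDCA+CLP and Sham and 26 for CLP and Sham. The summed neutrophil markers reached 3913 to 6412 CPM in the lymphocyte classes of the HDCA+CLP library and 2534 to 4020 CPM in those of the CLP library, against 73.3 to 129 CPM in the Sham library, and 341720 to 397525 CPM in the neutrophils themselves. In NK cells, 6.25%, 19.3% and 8.01% of cells in HDCA+CLP, CLP and Sham also met the rule of another class. The 8 NK cell markers summed to 929, 1478 and 153 CPM in CD8-negative T cells in the same order, and to 1597, 1491 and 834 CPM in CD8-positive T cells. B cells of the CLP library held 1431 CPM of monocyte markers, against 151 CPM in HDCA+CLP and 277 CPM in Sham. B cells of HDCA+CLP, CLP and Sham held 982, 2.19 and 11.0 CPM of erythroid markers, 1095, 445 and 412 CPM of plasma cell markers and 246, 57.6 and 94.7 CPM of T cell markers. The part of these admixtures in the results below was not tested beyond the values given.

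Ccr7 (ENSMUSG00000037944, chr11:99144199-99155077 on GRCm38.p6), the receptor for the chemokines CCL19 and CCL21 of lymph nodes, was highest in the Sham library in all 4 classes, in NK cells on few UMIs. CD8-negative T cells had 271 CPM (254 to 288) in HDCA+CLP, 184 CPM (176 to 193) in CLP and 389 CPM (379 to 400) in Sham. In CD8-positive T cells the levels were 236 CPM (217 to 257) in HDCA+CLP, 237 CPM (224 to 250) in CLP and 372 CPM (358 to 387) in Sham. In B cells they were 173 CPM (147 to 203) in HDCA+CLP, 114 CPM (96.6 to 133) in CLP and 271 CPM (262 to 281) in Sham. The HDCA+CLP and CLP libraries could not be told apart in CD8-positive T cells, whereas in CD8-negative T cells and B cells HDCA+CLP lay between CLP and Sham with intervals that did not overlap either. CLP over Sham, the log2 ratio was -1.08 (-1.16 to -1.0) in CD8-negative T cells, -0.65 (-0.75 to -0.55) in CD8-positive T cells and -1.25 (-1.50 to -1.02) in B cells, all called lower. The CD8-positive T cell call was lost in 6 of 10 alternatives, among them thinned cells (-0.53) and every cell weighing the same (-0.57). The CD8-negative T cell call was lost in 1 of 10 and the B cell call in 0 of 9. With CD8-negative T cells that met no other class rule, the ratio was -0.90. HDCA+CLP over CLP, the log2 ratio was 0.56 (0.44 to 0.67) in CD8-negative T cells, just short of 1.5-fold, and 0.61 (0.28 to 0.94) in B cells, called higher. This last B cell call was lost in 4 of 9 alternatives, with Ccr7 at 0.12 in thinned cells, 0.41 with every cell weighing the same, 0.50 without cells holding Mki67 or Top2a and 0.53 with size factors. NK cells held almost none, with 3 UMIs in 528 cells of HDCA+CLP, 27 UMIs in 1219 cells of CLP and 10 UMIs in 287 cells of Sham. Their ratio of CLP over Sham, -0.98 (-2.08 to 0.23), had an interval that included no change. Their ratio of HDCA+CLP over CLP, -1.75 (-4.11 to -0.05), was called lower on those 3 UMIs. As a measure of free RNA, 0.191%, 0.345% and 1.95% of neutrophils in HDCA+CLP, CLP and Sham had a Ccr7 UMI (median depth 7986, 8455 and 4602 UMIs), against 0.568%, 1.64% and 2.09% of NK cells (4839, 5375 and 4529 UMIs). In HDCA+CLP and Sham the intervals of these shares overlapped. In CLP, NK cells were above neutrophils, at 1.64% (1.00 to 2.52) against 0.345% (0.193 to 0.569), and thinned at 0.580% (0.233 to 1.19) against 0% (0 to 0.184).

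**Figure D1:**
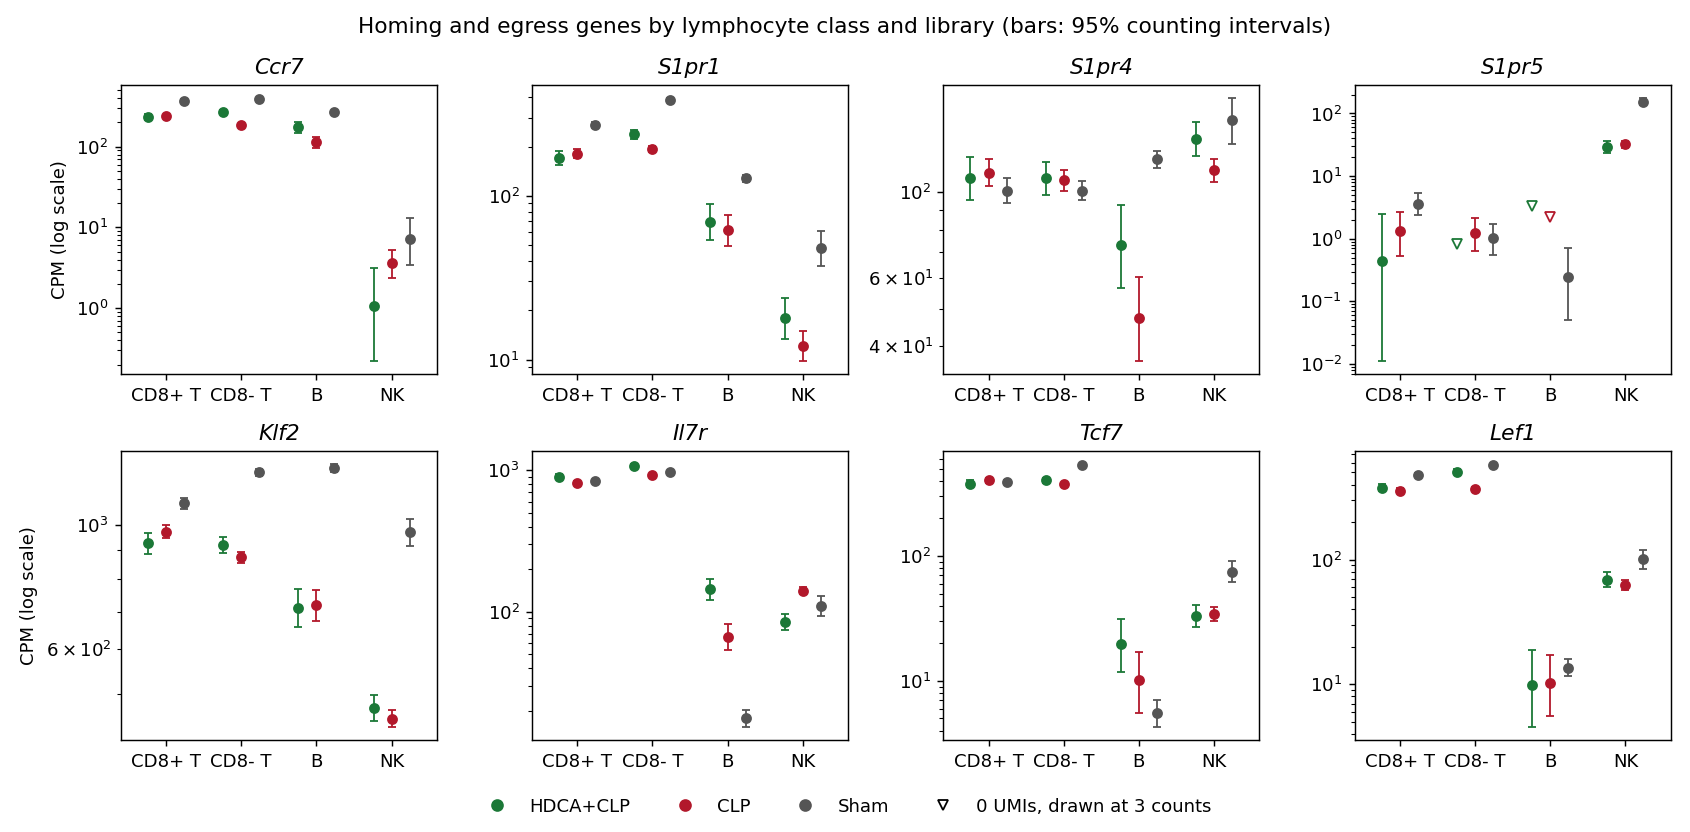
Level of each of the 8 genes in CPM (vertical axes, log scale, a different range in each panel) in CD8+ T, CD8- T, B and NK cells of the HDCA+CLP, CLP and Sham libraries; points are class sums, bars 95% counting intervals, open triangles genes with 0 UMIs drawn at 3 counts. Ccr7 and S1pr1 are highest in Sham in every class, S1pr5 stands out only in NK cells, and Il7r in B cells is lowest in Sham, with 145 CPM in HDCA+CLP, 66.3 CPM in CLP and 17.6 CPM in Sham. For Ccr7 in NK cells the CLP and Sham intervals overlap.

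S1pr1 (ENSMUSG00000045092, chr3:115710433-115715055), the receptor through which T and B cells leave lymph nodes, was likewise highest in Sham in all 4 classes. Its CD8-negative T cell level was 238 CPM (222 to 254) in HDCA+CLP, 194 CPM (185 to 203) in CLP and 385 CPM (374 to 396) in Sham. CD8-positive T cells had 171 CPM (154 to 189) in HDCA+CLP, 181 CPM (170 to 193) in CLP and 271 CPM (259 to 284) in Sham. B cells had 69.5 CPM (53.4 to 89.0) in HDCA+CLP, 62.0 CPM (49.5 to 76.6) in CLP and 128 CPM (121 to 134) in Sham. The gap between CLP and Sham was widest in NK cells, where S1pr1 is a minor receptor: 17.9 CPM (13.3 to 23.6) in HDCA+CLP and 12.2 CPM (9.80 to 14.9) in CLP, against 47.8 CPM (37.1 to 60.8) in Sham. CLP over Sham, the log2 ratio was -0.99 (-1.07 to -0.91) in CD8-negative T cells, -1.04 (-1.38 to -0.73) in B cells and -1.98 (-2.45 to -1.5) in NK cells, all called lower. In CD8-positive T cells it was -0.58 (-0.70 to -0.47), a hair under 1.5-fold. With CD8-negative T cells that met no other class rule, the ratio in that class was -0.83. HDCA+CLP over CLP, no class was called on all cells. The nearest were NK cells, at 0.56 (0.03 to 1.07), and CD8-negative T cells, at 0.30 (0.18 to 0.41). With NK cells that met the rule of that class only, S1pr1 had 14.7 CPM in HDCA+CLP and 7.81 CPM in CLP, which was called higher.

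S1pr5 (ENSMUSG00000045087, chr9:21242917-21248443) was found almost only in NK cells, and there it was far lower in CLP than in Sham. NK cells had 29.0 CPM (23.0 to 36.1) in HDCA+CLP and 32.4 CPM (28.4 to 36.7) in CLP, against 154 CPM (134 to 176) in Sham. HDCA+CLP and CLP overlapped, at -0.16 (-0.54 to 0.21) on the log2 scale, and both lay far under Sham. CLP over Sham, the log2 ratio was -2.25 (-2.52 to -1.98), or 4.77-fold lower. Its interval overlapped that of S1pr1 in NK cells, and with cells of 1 class only S1pr1 stood at -2.32 and S1pr5 at -2.10. After each cell was thinned to 1500 UMIs, 3.62% of NK cells in HDCA+CLP (2.19 to 5.59), 4.64% in CLP (3.52 to 5.98) and 21.3% in Sham (16.6 to 26.5) still had an S1pr5 UMI, and without thinning 13.3%, 16.2% and 48.1%. Outside NK cells the transcript was at the edge of detection. B cells held 0 UMIs in HDCA+CLP (278 cells, which allows up to 1.08% of cells with a UMI) and in CLP (286 cells, up to 1.05%) and 3 UMIs in Sham. CD8-negative T cells held 0 UMIs in HDCA+CLP (888 cells, up to 0.338%), 12 in CLP and 13 in Sham. CD8-positive T cells held 1 UMI in HDCA+CLP, 7 in CLP and 25 in Sham. The last of these ratios, -1.47 (-2.92 to -0.22) CLP over Sham, was called lower. Its 25 Sham UMIs lay in 9 cells. Without cells holding Mki67 or Top2a the ratio was -0.34, under 1.5-fold. All S1pr5 UMIs of CD8-positive T cells were in cells that also held 3 or more UMIs of Ccl5, a chemokine of effector and NK cells. Without such cells, 0 remained in each library.

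S1pr4 (ENSMUSG00000044199, chr10:81497745-81500137), the S1P receptor of haematopoietic cells, did not follow S1pr1 in T cells. CD8-positive T cells had 109 CPM (95.7 to 123) in HDCA+CLP, 113 CPM (104 to 122) in CLP and 101 CPM (93.6 to 109) in Sham. The CD8-negative class had 109 CPM (98.3 to 120) in HDCA+CLP, 107 CPM (101 to 114) in CLP and 101 CPM (95.6 to 107) in Sham. In these cells the 3 libraries overlapped, and CLP over Sham the log2 ratios were 0.16 and 0.09, with intervals that included no change. B cells differed, with 72.9 CPM (56.3 to 92.7) in HDCA+CLP and 47.4 CPM (36.6 to 60.4) in CLP, against 122 CPM (116 to 128) in Sham. There the ratio was -1.36 (-1.74 to -1.0) CLP over Sham, called lower, and 0.62 (0.10 to 1.14) HDCA+CLP over CLP, called higher from 66 and 65 UMIs. That last call was lost in 6 of 9 alternatives, where S1pr4 stood between 0.39, without B cells holding a T cell marker UMI, and 0.55, with every cell weighing the same. NK cells had 138 CPM (124 to 152) in HDCA+CLP and 114 CPM (107 to 122) in CLP, against 154 CPM (134 to 175) in Sham, and neither ratio reached 1.5-fold on all UMIs; thinned, CLP over Sham was -0.74. Neutrophils, which also carry this transcript, had 95.5 CPM (93.2 to 98.0) in HDCA+CLP, 94.4 CPM (91.4 to 97.6) in CLP and 44.3 CPM (31.3 to 60.8) in Sham.

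The make-up of the S1P receptor transcripts differed between libraries. Of the UMIs of S1pr1, S1pr4 and S1pr5 in NK cells, S1pr5 gave 15.7% (12.7 to 19.2) of 515 in HDCA+CLP and 20.4% (18.1 to 22.8) of 1186 in CLP, against 43.4% (39.0 to 47.9) of 498 in Sham. S1pr4 gave 74.6% (70.6 to 78.3) in HDCA+CLP and 71.9% (69.3 to 74.5) in CLP, against 43.2% (38.8 to 47.7) in Sham. In CD8-negative T cells, S1pr1 gave 68.6% (66.0 to 71.2) in HDCA+CLP and 64.1% (62.3 to 65.8) in CLP, against 79.0% (78.0 to 80.1) in Sham. The B cell shares of S1pr1, 48.8% (39.9 to 57.8), 56.7% (48.3 to 64.7) and 51.1% (49.3 to 52.9) in HDCA+CLP, CLP and Sham, overlapped. These are shares of 3′ tags and are set side by side between libraries, not between genes.

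**Figure D2:**
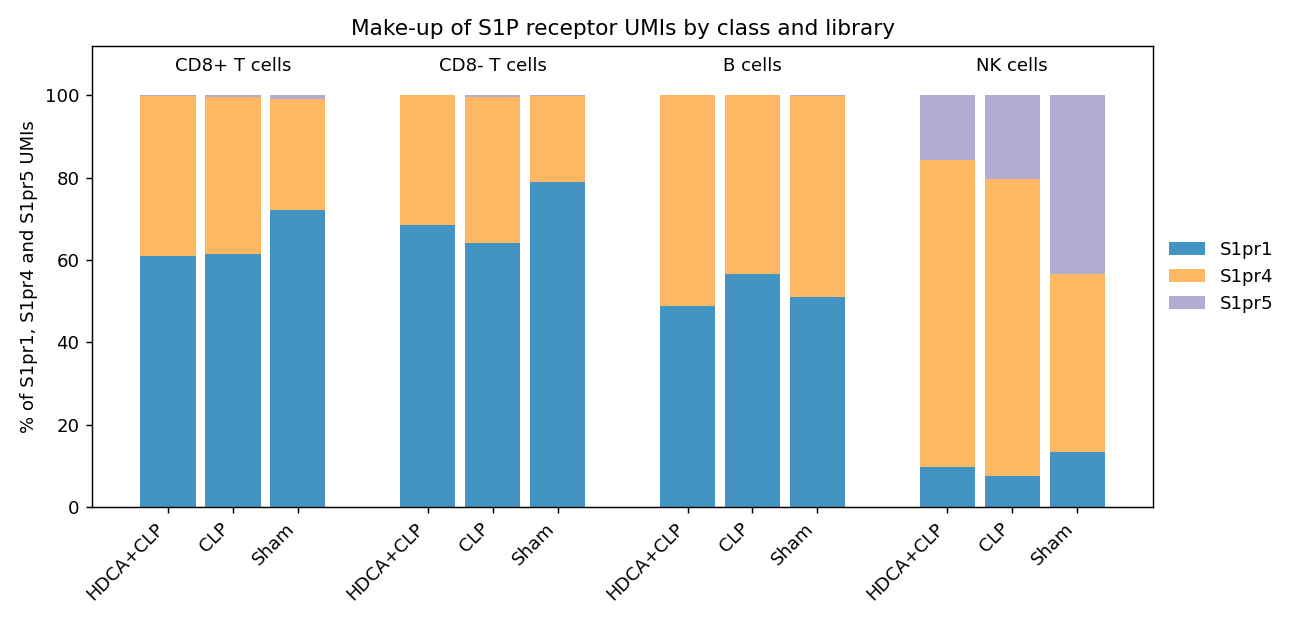
Share of the UMIs of S1pr1, S1pr4 and S1pr5 (vertical axis, percent, starting at 0) in each class and library; each bar is 1 library and its colours add up to 100%. In NK cells S1pr5 is 15.7% in HDCA+CLP and 20.4% in CLP, against 43.4% in Sham, and in both T cell classes the S1pr1 part is smaller in HDCA+CLP and CLP than in Sham.

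Klf2 (ENSMUSG00000055148, chr8:72319062-72321654) is the transcription factor upstream of S1pr1 in T cells, and its promoter is the first sequence above. Its level was highest in Sham in every class, and on all cells the gap widened from CD8-positive T cells to NK cells. CD8-positive T cells had 926 CPM (887 to 967) in HDCA+CLP, 972 CPM (945 to 999) in CLP and 1092 CPM (1067 to 1117) in Sham. CD8-negative T cells had 920 CPM (890 to 952) in HDCA+CLP, 874 CPM (856 to 893) in CLP and 1238 CPM (1219 to 1258) in Sham. B cells had 711 CPM (657 to 768) in HDCA+CLP, 719 CPM (674 to 765) in CLP and 1261 CPM (1241 to 1281) in Sham. In NK cells Klf2 stood at 472 CPM (447 to 498) in HDCA+CLP and 452 CPM (437 to 468) in CLP, against 968 CPM (917 to 1021) in Sham. CLP over Sham, the log2 ratios were -0.17, -0.50, -0.81 and -1.10 in these 4 classes, and the B and NK cell ratios were called lower. The B cell ratio dropped to -0.49 when every cell weighed the same and -0.47 when cells were thinned to 1500 UMIs, which ended that call. The order of B and NK cells also depended on the setting. With size factors B cells stood at -0.92 and NK cells at -0.81. With at most 5% mitochondrial UMIs they stood at -1.35 and -1.10. HDCA+CLP over CLP, all 4 ratios lay between -0.07 and 0.07. Neutrophils held Klf2 as well, at 780, 737 and 885 CPM in HDCA+CLP, CLP and Sham, and the part of free RNA in the lymphocyte values was not tested.

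Joint detection of Klf2 and S1pr1 was read in thinned cells. In CD8-negative T cells of the CLP library, 33.2% (30.4 to 36.0) of the 1115 cells with a Klf2 UMI had S1pr1, against 17.5% (15.0 to 20.2) of the 862 cells without one. In HDCA+CLP the shares were 33.1% (29.2 to 37.1) with Klf2 and 27.8% (22.8 to 33.2) without, and in Sham 41.3% (38.9 to 43.7) and 41.2% (36.0 to 46.4). The split by Klf2 was thus visible in the CLP library and within counting error in the others. S1pr1 was not scarcer in T cells with Cd69, the membrane protein that pulls S1PR1 off the cell surface, in Sham, where CD8-negative T cells had it in 42.3% (38.4 to 46.2) of cells with Cd69 and 40.8% (38.2 to 43.5) of cells without. In CLP the same shares were 20.5% (16.3 to 25.1) and 27.6% (25.4 to 29.8). Cells of a library share its depth and free RNA, and no p-value was made from them.

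Il7r (ENSMUSG00000003882, chr15:9506159-9529941) was nearly level in T cells, the cells that use it most. CD8-positive T cells had 903 CPM (864 to 943) in HDCA+CLP, 812 CPM (788 to 837) in CLP and 836 CPM (815 to 858) in Sham. CD8-negative T cells had 1074 CPM (1041 to 1108) in HDCA+CLP, 923 CPM (904 to 942) in CLP and 973 CPM (956 to 991) in Sham. HDCA+CLP was the highest of the 3 in both, by 0.15 and 0.22 over CLP on the log2 scale. B cells were lowest in Sham, where the homing receptors were highest: 145 CPM (121 to 172) in HDCA+CLP, 66.3 CPM (53.4 to 81.4) in CLP and 17.6 CPM (15.4 to 20.2) in Sham. The B cell ratios were 1.91 (1.54 to 2.27) CLP over Sham and 1.12 (0.73 to 1.53) HDCA+CLP over CLP, both called higher. With cells thinned, 11.9% (8.25 to 16.3), 10.6% (7.29 to 14.8) and 1.90% (1.41 to 2.50) of B cells had an Il7r UMI in HDCA+CLP, CLP and Sham, so HDCA+CLP and CLP overlapped in the share of cells. Without thinning 20.9%, 17.5% and 4.07% did, and 0.689%, 1.20% and 1.95% of neutrophils.

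Those Il7r-bearing B cells were looked at for T cell transcripts, a choice made after the values were seen. A UMI of any of 12 T cell markers was found in 3 of the 58 such cells in HDCA+CLP, 6 of 50 in CLP and 29 of 108 in Sham. Summed, those markers had 924 CPM in B cells with Il7r and 55.2 CPM in B cells without it in HDCA+CLP, 164 and 35.3 CPM in CLP, and 1056 and 52.3 CPM in Sham. Among B cells with 0 UMIs of those markers, Il7r had 157 CPM (130 to 188) in HDCA+CLP, 70.6 CPM (55.9 to 88.0) in CLP and 10.8 CPM (8.87 to 13.005) in Sham. The ratios were then 2.71 (2.27 to 3.14) CLP over Sham and 1.15 (0.73 to 1.58) HDCA+CLP over CLP, as large as or larger than before. Summed B cell markers were alike in B cells with and without Il7r, at 5902 and 5761 CPM in HDCA+CLP, 4890 and 4333 CPM in CLP and 9659 and 10761 CPM in Sham. Of 4 genes of B cell precursors, also picked after the values were seen, Rag1, Rag2, Igll1 and Vpreb1 all had 0 UMIs in B cells of HDCA+CLP (up to 3.31 CPM) and CLP (up to 2.19 CPM), while Rag1 and Vpreb1 had 5 UMIs each in Sham. Without removal of doublets, of which 39.5% in Sham met the rules of B cells and of T or NK cells at once, the ratio of CLP over Sham was 0.44 and no longer called.

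In NK cells Il7r had 85.3 CPM (74.8 to 96.8) in HDCA+CLP, 141 CPM (133 to 150) in CLP and 111 CPM (93.9 to 130) in Sham. HDCA+CLP over CLP was called lower at -0.73 (-0.94 to -0.52), but this turned round without cells that held any Cd3d, Cd3e or Cd3g UMI. Then Il7r had 55.7 CPM in 470 cells of HDCA+CLP, 34.4 CPM in 937 cells of CLP and 33.3 CPM in 246 cells of Sham, and HDCA+CLP over CLP was 0.70. Among all thinned NK cells of the CLP library, Il7r was found in 6.80% (4.78 to 9.33) of cells with Klf2 and 18.1% (15.3 to 21.1) of cells without, a split not seen beyond counting error in HDCA+CLP (7.14% and 6.23%) or Sham (4.63% and 6.06%).

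Tcf7 (ENSMUSG00000000782, chr11:52246527-52283383) and Lef1 (ENSMUSG00000027985, chr3:131110297-131224357) encode partner factors that bind the same DNA motif. In CD8-positive T cells Tcf7 had 379 CPM (354 to 405) in HDCA+CLP, 402 CPM (385 to 420) in CLP and 390 CPM (375 to 405) in Sham, with all 3 overlapping. CD8-negative T cells had 403 CPM (382 to 424) in HDCA+CLP and 375 CPM (363 to 387) in CLP, against 532 CPM (519 to 544) in Sham. The ratio there, CLP over Sham, was -0.50 (-0.56 to -0.45) and not called. Lef1 in CD8-positive T cells had 377 CPM (353 to 404) in HDCA+CLP and 356 CPM (340 to 373) in CLP, against 479 CPM (463 to 496) in Sham, at -0.43 CLP over Sham. CD8-negative T cells had 508 CPM (485 to 531) in HDCA+CLP, 367 CPM (355 to 379) in CLP and 571 CPM (558 to 584) in Sham. CLP over Sham, Lef1 was called lower in CD8-negative T cells, at -0.64 (-0.70 to -0.58), and HDCA+CLP stood 0.47 (0.39 to 0.55) above CLP, under 1.5-fold. The call of Lef1 was lost in 6 of 10 alternatives. Among them were cells of 1 class only (-0.50), every cell weighing the same (-0.47) and thinned cells (-0.52). Without cells holding Mki67 or Top2a the ratio was -0.57.

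NK cells carry both factors at a low level. Tcf7 had 33.3 CPM (26.9 to 40.8) in HDCA+CLP and 34.2 CPM (30.2 to 38.7) in CLP, against 75.0 CPM (61.3 to 90.8) in Sham, and Lef1 69.1 CPM (59.7 to 79.6) in HDCA+CLP and 62.0 CPM (56.5 to 68.0) in CLP, against 101 CPM (84.8 to 119) in Sham. CLP over Sham, Tcf7 was -1.13 (-1.46 to -0.79) and Lef1 -0.70 (-0.97 to -0.42), both called lower. The call of Lef1 did not hold with median-of-ratios size factors (-0.41), with every cell weighing the same (-0.45), with at most 5% mitochondrial UMIs (-0.57) or without cells holding Cd3 genes (-0.57). B cells held few UMIs of either gene, 18, 14 and 67 of Tcf7 and 9, 14 and 165 of Lef1 in HDCA+CLP, CLP and Sham, and neither ratio was called in either comparison.

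Set against all measured genes, the 8 genes stood as follows in CLP against Sham. In CD8-positive T cells 2 of 8 were lower (Ccr7 and S1pr5), where 12.9% of 9870 measured genes were lower, and 0 were higher, where 11.0% of genes were. Among CD8-negative T cells 3 of 8 were lower (Ccr7, S1pr1 and Lef1), against 14.4% of 11060 genes, and 0 were higher, against 16.6%. In B cells 4 of the 7 genes that reached 20 UMIs over both libraries were lower (Ccr7, S1pr1, S1pr4 and Klf2), against 15.9% of 10333 genes, and Il7r was higher, against 14.6%. In NK cells 5 of 8 were lower (S1pr1, S1pr5, Klf2, Tcf7 and Lef1), against 23.8% of 9776 genes, and 0 were higher, against 8.52%. The shares of the 8 genes called lower lay above the share of all genes in each class, most clearly in B and NK cells, on counts too small to say more. In CD8-positive T cells S1pr5 was called on 7 UMIs in CLP and 25 in Sham. The 8 genes were chosen with earlier results of these data known. All measured genes were not matched to them for UMIs, so these shares are a description only. The median log2 ratio of the genes was -0.30, -0.50, -0.81 and -1.04 in the 4 classes in this order, and that of all measured genes -0.06, -0.0042, -0.10 and -0.24.

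In HDCA+CLP against CLP, few of the genes were called. In CD8-positive T cells 0 of 7 were lower or higher, where 1.28% of 9283 genes were lower and 6.13% higher. In CD8-negative T cells 0 of 7 were called in either direction, where 3.09% of 10460 genes were lower and 5.09% higher. In B cells 3 of 7 were higher (Ccr7, S1pr4 and Il7r), against 8.52% of 7404 genes, and 0 were lower, against 8.66%. In NK cells 2 of 8 were lower (Ccr7 and Il7r), against 3.28% of 9893 genes, and 0 were higher, against 4.31%. Both of the NK cell calls are the ones described above as resting on 3 UMIs or turning round. The median log2 ratio of the genes was -0.05, 0.22, 0.61 and 0.01 in the 4 classes, and that of all measured genes 0.13, 0.08, 0.03 and 0.06. The 2 comparisons share the CLP library and are not independent.

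**Figure D3:**
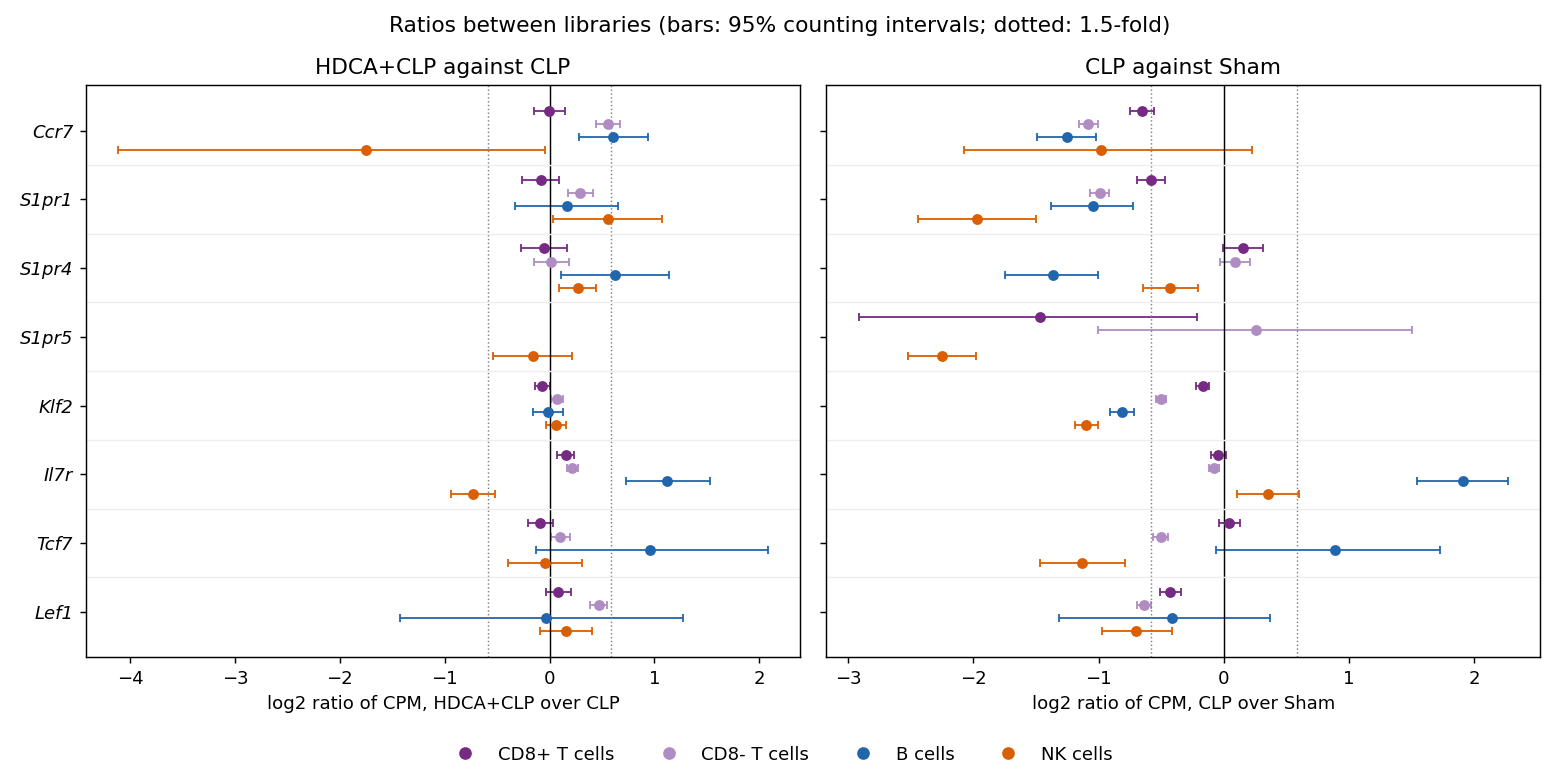
Log2 ratios of CPM for the 8 genes (horizontal axes) in HDCA+CLP over CLP (left) and CLP over Sham (right), with a point for each class where the gene had at least 20 UMIs over both libraries; bars are 95% counting intervals, the solid line is no change and dotted lines are 1.5-fold. On the right most points lie left of no change, down to -2.25 for S1pr5 in NK cells, and on the left the T cell points lie within 1.5-fold.

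The T cell ratios were then taken without cells holding Ccl5, a transcript of effector and memory T cells that naive T cells lack. Of CD8-positive T cells, 34.5%, 56.1% and 22.9% had a Ccl5 UMI in HDCA+CLP, CLP and Sham, and of CD8-negative T cells 15.0%, 42.8% and 4.95%. A Ccl5 UMI was also found in 7.45%, 25.3% and 4.55% of neutrophils, a measure of free RNA, and cells with 3 or more Ccl5 UMIs were also left out, a setting added after the data were seen. When CD8-negative T cells with any Ccl5 UMI were left out (755, 1152 and 1919 cells remained), Ccr7 had 327 CPM in HDCA+CLP, 271 CPM in CLP and 398 CPM in Sham. The ratio of CLP over Sham was -0.55 (-0.64 to -0.47) instead of -1.08, and that of S1pr1 -0.54 (-0.63 to -0.45) instead of -0.99. Klf2 moved to -0.06 (-0.10 to -0.02), Tcf7 to -0.03 (-0.10 to 0.03) and Lef1 to -0.20 (-0.27 to -0.13). Without cells holding 3 or more Ccl5 UMIs, the ratios were -0.61 (-0.69 to -0.53) for Ccr7, past 1.5-fold, -0.57 (-0.65 to -0.49) for S1pr1, -0.13 for Klf2, -0.09 for Tcf7 and -0.26 for Lef1. In the cells without any Ccl5 UMI the intervals of Ccr7 and S1pr1 thus lay well below no change, while the interval of Tcf7 included no change and that of Klf2 ended at -0.02. The median log2 ratio of all measured genes was -0.08 in this setting. It lay inside the intervals of Klf2 and Tcf7 and above those of Ccr7, S1pr1 and Lef1.

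CD8-positive T cells showed the same order. Without any Ccl5 UMI (249, 344 and 650 cells) Ccr7 was at -0.33 (-0.46 to -0.19), S1pr1 at -0.33 (-0.49 to -0.18), Lef1 at -0.16 (-0.27 to -0.06), Klf2 at -0.01 (-0.08 to 0.06) and Tcf7 at 0.26 (0.15 to 0.38), CLP over Sham. The median of all measured genes was -0.16 in this setting, inside the interval of Lef1 and just above those of Ccr7 and S1pr1. HDCA+CLP over CLP, the Ccr7 ratio in CD8-negative T cells was 0.27 (0.15 to 0.39) without Ccl5-holding cells, instead of 0.56, and S1pr1 had an interval of -0.13 to 0.13, instead of a ratio of 0.30. Lef1 was at 0.20 (0.11 to 0.29), instead of 0.47. Klf2 and Tcf7 changed sign, Klf2 to -0.21 (-0.28 to -0.15), instead of 0.07, and Tcf7 to -0.22 (-0.31 to -0.12), instead of 0.10. The median of all measured genes was 0.11 in this setting. Among thinned CD8-negative T cells of the CLP library, Ccr7 was found in 7.94% (5.97 to 10.3) of cells with Ccl5 and 30.3% (27.9 to 32.9) of cells without, and S1pr1 in 12.3% (9.86 to 15.1) and 33.1% (30.6 to 35.7).

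**Figure D4:**
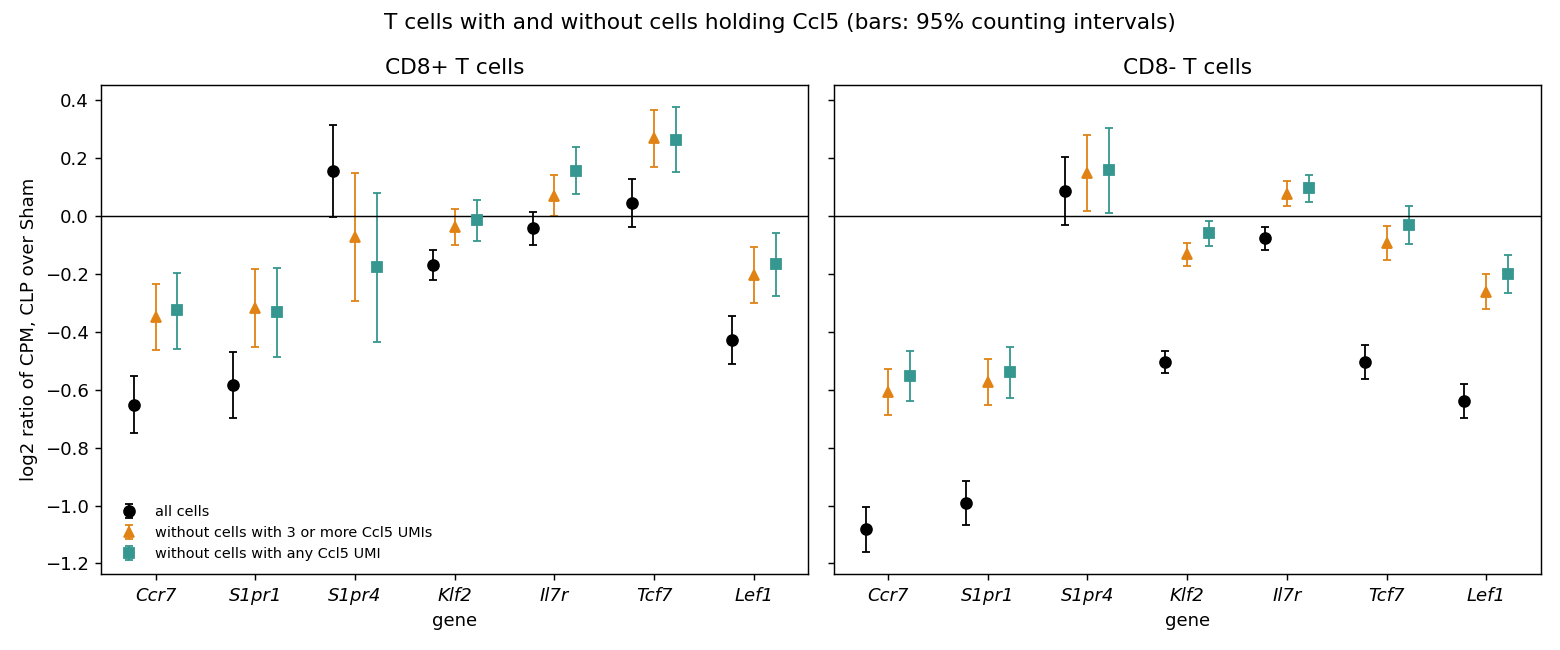
Log2 ratio of CPM, CLP over Sham (vertical axis), for 7 of the genes in CD8+ and CD8- T cells, from all cells (circles), without cells with 3 or more Ccl5 UMIs (triangles) and without cells with any Ccl5 UMI (squares); bars are 95% counting intervals. In CD8- T cells Ccr7 stands at -1.08, -0.61 and -0.55 and Klf2 at -0.50, -0.13 and -0.06 in these settings.

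How many of the 8 genes a single cell showed was counted after thinning to 1500 UMIs. CD8-negative T cells showed 3.13 ± 1.31 genes in HDCA+CLP and 2.71 ± 1.56 in CLP, against 3.50 ± 1.32 in Sham (SD over cells). CD8-positive T cells showed 2.97 ± 1.32, 2.84 ± 1.43 and 3.17 ± 1.29, B cells 1.10 ± 0.917, 1.05 ± 0.797 and 1.495 ± 0.854, and NK cells 0.933 ± 0.881, 0.925 ± 0.875 and 1.56 ± 0.880 in HDCA+CLP, CLP and Sham. Cells with none of the 8 made up 2.88% (1.87 to 4.23) of CD8-negative T cells in HDCA+CLP, 6.93% (5.85 to 8.14) in CLP and 1.14% (0.725 to 1.71) in Sham. Among NK cells they made up 34.7% (30.6 to 38.9) in HDCA+CLP and 35.3% (32.6 to 38.1) in CLP, against 9.22% (6.11 to 13.2) in Sham. Tcf7 was found in 48.2% of CD8-negative T cells with Lef1 and 43.0% of those without in HDCA+CLP, in 56.3% (52.8 to 59.7) and 29.9% (27.3 to 32.7) in CLP, and in 54.1% and 47.5% in Sham. The contrast between cells with and without Lef1 was the widest in CLP. The CLP library had the widest spread of the 3 in the number of these genes per CD8-negative T cell.

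Other genes of lymph node entry and positioning, a list of 12, were called in both directions in CLP against Sham, except in NK cells. Among CD8-negative T cells 6 of 12 were lower and 2 higher, in CD8-positive T cells 4 of 11 lower and 1 higher, in B cells 5 of 12 lower and 3 higher, and in NK cells 8 of 9 lower. Of all measured genes, 14.4% were lower and 16.6% higher in CD8-negative T cells, and 12.9% and 11.0% in CD8-positive T cells. In B cells these shares were 15.9% and 14.6%, and in NK cells 23.8% and 8.52%. Itga4, the integrin alpha4 chain, showed 258, 123 and 260 CPM in CD8-negative T cells of HDCA+CLP, CLP and Sham, and 224, 127 and 234 CPM in CD8-positive T cells. For this gene, HDCA+CLP stood close to Sham in both T cell classes, and CLP was low. Itgb7, the beta7 chain that pairs with it for gut homing, was at 120, 79.1 and 199 CPM in CD8-negative T cells and 58.4, 49.2 and 150 CPM in NK cells. Ccr9, a gut homing receptor, had 41.2 CPM in HDCA+CLP and 14.0 CPM in CLP, against 89.6 CPM in Sham, in CD8-positive T cells. Cxcr4, which holds cells in bone marrow, was lower in CLP than in Sham in B cells, at 79.5, 59.8 and 179 CPM in HDCA+CLP, CLP and Sham, and higher in HDCA+CLP than in CLP in NK cells, at 51.2 and 32.1 CPM. Cd44 and Itgb2, which encode adhesion molecules, ran the other way in B cells, with Cd44 at 44.2 CPM in HDCA+CLP and 125 CPM in CLP, against 36.3 CPM in Sham. B cells of CLP also had the highest CPM of monocyte markers, and the part of monocyte RNA in these values was not tested. Cd44 was also called higher in CLP against Sham in both T cell classes. In NK cells, Cd44 and Itgb2 were called lower. In HDCA+CLP against CLP, 4 of 12 were higher and 0 lower in CD8-negative T cells, 2 of 11 and 0 in CD8-positive T cells, 1 and 2 of 12 in B cells, and 1 and 0 of 9 in NK cells. Of all measured genes, 5.09% were higher and 3.09% lower in CD8-negative T cells, and 6.13% and 1.28% in CD8-positive T cells. In B cells these shares were 8.52% and 8.66%, and in NK cells 4.31% and 3.28%.

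Of 16 genes of the S1P system and egress control, some were called in each direction in CLP against Sham in every class. Of the 14 measured in CD8-negative T cells 4 were higher and 3 lower, of 13 in CD8-positive T cells 2 and 2, of 13 in B cells 3 and 5, and of 14 in NK cells 1 and 6. Among all measured genes, 16.6%, 11.0%, 14.6% and 8.52% were higher in these classes, and 14.4%, 12.9%, 15.9% and 23.8% lower. The counts in CD8-positive T cells thus stood near the shares of all genes. Gna13, the G-protein subunit used by the retention-type receptors, was higher in every class, with 137, 163 and 67.8 CPM in CD8-negative T cells and 129, 177 and 86.6 CPM in B cells of HDCA+CLP, CLP and Sham. Arhgef1, the exchange factor that acts after it, was lower in every class, at 171, 147 and 285 CPM in CD8-negative T cells and 136, 91.1 and 243 CPM in B cells. Rgs1, a brake on chemokine receptor signalling that is induced on activation, had 88.2, 129 and 58.6 CPM in CD8-negative T cells, and Rgs10 had 211, 148 and 339 CPM. Cd69, the binding partner that removes S1PR1 from the surface, was lower in CD8-negative T cells, at 206, 164 and 290 CPM, and in B cells, at 407, 248 and 394 CPM. In CD8-positive T cells it had 324, 253 and 311 CPM and was not called, and NK cells had 37.6, 55.2 and 59.3 CPM. In B cells Coro1a, an actin regulator of T cell exit, had 618 CPM in HDCA+CLP and 610 CPM in CLP, against 1278 CPM in Sham. In NK cells Rgs2 had 76.0 CPM in HDCA+CLP and 39.7 CPM in CLP, against 109 CPM in Sham, and Dock2, a motility factor, 227 CPM in CLP against 413 CPM in Sham. HDCA+CLP against CLP, 0 of 14 were called in CD8-negative T cells, 2 of 13 were lower in CD8-positive T cells (Rgs1 and Rgs2), and 1 was higher and 1 lower in B cells (12 measured) and in NK cells (14 measured). The shares of all genes were 5.09% higher and 3.09% lower in CD8-negative T cells, and 6.13% and 1.28% in CD8-positive T cells. They were 8.52% and 8.66% in B cells, and 4.31% and 3.28% in NK cells.

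Downstream of the interleukin-7 receptor, the feedback inhibitors Socs1, Socs3 and Cish were the 3 genes higher in CLP than in Sham in both T cell classes. In CLP against Sham, 3 of 11 genes were higher and 1 lower in CD8-positive T cells, 3 and 0 in CD8-negative T cells, 3 and 2 in B cells and 4 and 3 in NK cells. Among all measured genes, 11.0%, 16.6%, 14.6% and 8.52% were higher in these classes, and 12.9%, 14.4%, 15.9% and 23.8% lower. Socs3, an inhibitor of cytokine receptor signalling, had 177, 182 and 43.6 CPM in CD8-positive T cells of HDCA+CLP, CLP and Sham, and 322, 360 and 10.1 CPM in B cells. Socs1 had 105, 103 and 36.8 CPM in CD8-negative T cells. In these values of Socs3 and Socs1, HDCA+CLP and CLP stood together, apart from Sham. Il2rg, the common gamma chain that pairs with the Il7r product, was lower in CD8-positive T cells, at 160 CPM in CLP against 252 CPM in Sham, and in B cells, at 138 CPM against 238 CPM. Bcl2, the survival gene that the receptor maintains, had 98.2, 60.5 and 164 CPM in B cells and 284, 329 and 518 CPM in NK cells. Jak1, its kinase, had 544, 446 and 866 CPM in NK cells, and Pim1, a survival kinase, 410 CPM in CLP against 256 CPM in Sham. In HDCA+CLP against CLP, 3 of 10 genes were higher and 1 lower in B cells (Jak1, Stat5b and Bcl2 among the higher), 1 of 11 was higher in CD8-positive T cells, and Cish alone was lower in CD8-negative T cells and in NK cells. Of all measured genes, 8.52% were higher and 8.66% lower in B cells, and 6.13% were higher in CD8-positive T cells. The shares lower were 3.09% in CD8-negative T cells and 3.28% in NK cells.

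Of 20 regulators of quiescence and the naive state, 4 were lower and 0 higher in CD8-positive T cells in CLP against Sham, 6 and 2 in CD8-negative T cells, 8 and 3 in B cells, and 9 and 1 of 19 in NK cells. Among all measured genes, 12.9%, 14.4%, 15.9% and 23.8% were lower in these classes, and 11.0%, 16.6%, 14.6% and 8.52% higher. Foxo1, the factor that maintains Klf2 and Il7r in naive T cells, had 60.6, 49.96 and 98.8 CPM in CD8-positive T cells of HDCA+CLP, CLP and Sham and 64.7, 64.6 and 116 CPM in CD8-negative T cells, lower in CLP in both. In B cells it had 116, 78.7 and 116 CPM and was not called, and in NK cells it was level at 50.9, 49.5 and 48.6 CPM. Bcl11b, a T cell identity factor, had 223, 172 and 391 CPM in CD8-negative T cells and 135 CPM in both HDCA+CLP and CLP, against 246 CPM in Sham, in CD8-positive T cells. Klf13 and Runx3 were higher in CD8-negative T cells, Klf13 at 504 CPM in CLP against 327 CPM in Sham and Runx3 at 88.8 CPM against 54.7 CPM. In B cells Id3 had 45.3, 36.4 and 135 CPM, while Satb1, a chromatin organiser, had 555, 302 and 155 CPM, the same order as Il7r, and Tsc22d3, a glucocorticoid target, 484 CPM in CLP against 991 CPM in Sham. In NK cells Klf3 had 116, 76.9 and 197 CPM and Btg2, an antiproliferative gene, 160 CPM in CLP against 334 CPM in Sham. In HDCA+CLP against CLP, 1 to 3 of these regulators were higher in each class, among them Ets1 and Myb in NK cells at 568 and 75.6 CPM in HDCA+CLP against 360 and 40.7 CPM in CLP, and 1, Bcl11b in NK cells, was lower. The shares of all genes higher were 6.13% in CD8-positive T cells, 5.09% in CD8-negative T cells, 8.52% in B cells and 4.31% in NK cells. In NK cells 3.28% of genes were lower.

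The effector and tissue-residence list of 16 genes ran against the homing genes in T cells. In CLP against Sham, 13 of 15 were higher and 1 lower in CD8-negative T cells, 9 and 2 of 15 in CD8-positive T cells, 6 and 0 of 7 in B cells, and 4 and 6 of 15 in NK cells. Among all measured genes, 16.6%, 11.0%, 14.6% and 8.52% were higher in these classes, and 14.4%, 12.9%, 15.9% and 23.8% lower. Gzmb, a granule protease, had 375, 593 and 3.61 CPM in CD8-negative T cells and 705, 490 and 9.33 CPM in CD8-positive T cells of HDCA+CLP, CLP and Sham, in classes that also differed in NK cell markers as given above. Gzma had 854 CPM in CLP against 55.1 CPM in Sham in CD8-negative T cells. Itgae, an integrin chain of resident cells, had 10.7 CPM in CLP and 51.7 CPM in Sham in CD8-positive T cells. Id2, a factor of effector and innate lymphocytes, had 217 CPM in HDCA+CLP and 568 CPM in CLP in CD8-negative T cells, and Cxcr6 21.9 CPM and 54.4 CPM. Ccl5 had 1410 CPM in HDCA+CLP and 2731 CPM in CLP in CD8-positive T cells. In NK cells Zeb2, a factor of mature NK cells, had 102 CPM in HDCA+CLP and 84.9 CPM in CLP, against 406 CPM in Sham; both were far below Sham, as S1pr5 was. In B cells Id2 and Ccl5 were higher in CLP than in Sham, Id2 at 216 against 17.6 CPM and Ccl5 at 67.8 against 9.89 CPM, beside the free Ccl5 RNA seen in neutrophils. In HDCA+CLP against CLP, 0 were higher and 7 of 15 lower in CD8-negative T cells, 0 and 3 of 14 in CD8-positive T cells, 1 and 4 of 7 in B cells, and 0 and 2 of 15 in NK cells. Among all measured genes, 5.09%, 6.13%, 8.52% and 4.31% were higher in these classes, and 3.09%, 1.28%, 8.66% and 3.28% lower.

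Genes whose pattern was most like each of the 8 were taken by Pearson r over the 12 values of 4 classes in 3 libraries, on log2(CPM + 10), among 3881 genes. These values share libraries and depth, and the r is a description only. For Ccr7 they were Fam169b (r = 0.97), Pik3ip1 (0.96) and N4bp2l1 (0.96), for S1pr1 Rflnb (0.96), Slamf6 (0.96) and Frat2 (0.96), and for Klf2 Aaed1 (0.91), Sh3kbp1 (0.91) and Gm26740 (0.89). S1pr5 was most like Pdgfb (0.99), Camk2n1 (0.99) and Arl4d (0.98), and S1pr4 like Surf1 (0.94) and Tbc1d10c (0.92). The T cell factors paired with each other and with T cell signalling genes, Tcf7 with Lat (0.99), Cd3e (0.98) and Lef1 (0.98), Lef1 with Lat (0.98), Tcf7 (0.98) and Saraf (0.98), and Il7r with Tcf7 (0.97), Ms4a6b (0.96) and Ifi208 (0.96). Among the 8 themselves, r was 0.91 for Ccr7 and S1pr1, 0.86 for S1pr1 and Klf2, and -0.85 for Ccr7 and S1pr5. The 12 values span 4 classes, so r mixes differences between classes with those between libraries. S1pr5 was found almost only in NK cells, which held almost no Ccr7. In CD8-positive T cells, Ccr7 and S1pr5 were both called lower in CLP against Sham.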

How the data were processed

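The authors deposited, for each of 3 libraries (1 per group), a matrix of unnormalized UMI counts over genes and cell-containing barcodes; per the submitters' processing notes Cell Ranger 5.0.1, Seurat 4.0.6, R 4.0.3 and the build mm39 were used. No cell annotation was used here. Totals were 95178381 UMIs in 12205 barcodes (HDCA+CLP), 87031721 in 11387 (CLP) and 42427093 in 7159 (Sham).

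A barcode was kept with 500 or more UMIs, 200 or more genes and no more than 10% mitochondrial UMIs. Per library, doublet scores came from 2 simulated pairs per cell (2000 variable genes, 30 principal components, 30 neighbours) and removed at 0.8% per 1000 barcodes, 1174, 987 and 395 cells in the same order, leaving 10849, 9853 and 6496. T cells with exactly 1 UMI of Cd8a and Cd8b1 (120, 257 and 144) were in neither CD8 class. UMIs were summed per class and library and scaled to CPM, which corrects for depth but not for the make-up of the RNA. Intervals are exact Poisson for CPM, conditional binomial for ratios and Clopper-Pearson for shares, all 95% and for counting error only; a count of 0 is limited by 3 counts. Cells are not replicates, and no test was made. For shares of cells with a UMI, cells were thinned to 1500 UMIs and shallower ones left out, 0 to 38 per class and library, and 2000 neutrophils at most were thinned. Genes needed 20 UMIs over both libraries to be called.

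The 8 genes, the 5 gene lists and the marker lists were chosen with earlier results of these data known. From each list, the text names per class and comparison up to 2 genes with the highest and 2 with the lowest interval bound among those with 50 CPM in 1 library and past 1.5-fold, and always Cd69 and Foxo1; some examples are given in a single class, and a few genes that the rules name are not reported here. The precursor genes, and Rgs2, Stat5b, Cish and Bcl11b where no rule named them, were chosen after their values were seen. Promoter sequences and loci are from RefSeq on GRCm38.p6, and no coordinates of the count files were used. Software was matplotlib 3.10.9, scikit-learn 1.9.0, SciPy 1.17.1, NumPy 2.4.6 and pandas 2.3.3 under Python 3.11.15. The steps were tested on simulated counts.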

Additional observations from a re-analysis of the deposited data

Results flagged for a closer look

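In HDCA+CLP against CLP, Ccr7 and Il7r were called in opposite directions in B cells and NK cells, each class being read from 1 library per group. Ccr7 was higher in B cells, at a log2 ratio of 0.61, and lower in NK cells, at -1.75, where HDCA+CLP held 3 UMIs and CLP 27. Il7r was higher in B cells, at 1.12, and lower in NK cells, at -0.73, where the sign turned without cells holding Cd3 genes. The difference between the classes was not tested for either gene, and the part of T cells among the cells meeting the NK cell rule was not tested beyond the values in the text.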

How the results depend on the processing

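No paired analysis was possible because each group has 1 library. The count of genes lower in CLP against Sham in CD8-positive T cells, 2, was 1 with cells of 1 class only, with every cell weighing the same, with a minimum of 100 UMIs or at 2-fold, and 0 with cells thinned to 1500 UMIs, without cells holding Mki67 or Top2a, and without cells with Ccl5 by either limit. In CD8-negative T cells, 3 lower genes became 2 with cells of 1 class only, equal weights, thinning or no cycling cells. They became 1 at 2-fold and without cells with 3 or more Ccl5 UMIs, and 0 without any Ccl5. In B cells the count higher, 1, was 0 without doublet removal and 2 without cycling cells. In NK cells the 0 higher became 1 (Il7r) with at most 5% mitochondrial UMIs, size factors, equal weights, thinning or no cycling cells. HDCA+CLP against CLP, the 0 higher in CD8-negative T cells became 1 without doublet removal, with equal weights, with thinning or without cycling cells, and the 0 lower became 1 without doublet removal or with no minimum of UMIs. In B cells the 3 higher became 1 with size factors, equal weights or 2-fold, and 0 with thinning. In NK cells the 2 lower became 1 without doublet removal, with at most 5% mitochondrial UMIs, with thinning, with a minimum of 100 UMIs or at 2-fold, and 0 with cells of 1 class only or without cells with Cd3 genes, where Il7r turned to 0.51 and 0.70. The 0 higher there became 1, which was S1pr1 with cells of 1 class only, with at most 5% mitochondrial UMIs and with equal weights, and Il7r without cells with Cd3 genes. The causes were not tested.

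Under the alternatives that recompute a ratio, S1pr5, S1pr1, Klf2 and Tcf7 in NK cells and Ccr7, S1pr1 and S1pr4 in B cells stayed past 1.5-fold lower in CLP against Sham in all 9; S1pr5 in NK cells ranged between -2.37 and -1.96. Median-of-ratios size factors moved the NK cell scale by -0.29 and the B cell scale by 0.11 on the log2 scale, CLP over Sham, and that of CD8-positive T cells by 0.12, HDCA+CLP over CLP. B cells of HDCA+CLP, with 905868 UMIs, and NK cell Ccr7, with 3 UMIs, are the values that depth limits most.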
